A study of Rattus norvegicus with 15 samples.

Results

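The genes of the MHC class II pathway were followed in the rat retina over 5 groups of libraries. The members were taken by gene symbol: RT1-Ba, RT1-Bb, RT1-Da, RT1-Db1, RT1-DMa, RT1-DMb, Cd74 and Ciita. These 8 symbols matched 10 gene identifiers among the 20375 listed, because RT1-DMa and RT1-DMb each occur under a pair of identifiers. Of these, 9 identifiers were among the 15424 genes tested. The identifier left out was ENSRNOG00000049491, listed as RT1-DMb, whose values of 0.21 to 0.49 lay below the filter in all 15 libraries.

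The data are RNA-Seq values from whole retinas of wild-type Sprague-Dawley rats at post natal week 12, collected on day 31 after transplantation. Each group held 3 libraries. The NT (no-treatment) retinas were healthy and received neither cells nor sodium iodate (NaIO3), an oxidant that damages the retinal pigment epithelium and then the photoreceptors. The sham, MSC, MSCEPO and DPSC retinas all came from rats given NaIO3 at 40 mg/kg. The sham rats received vehicle in the vitreous, the MSC rats human mesenchymal stem cells from Wharton's jelly, and the MSCEPO rats the same kind of cells carrying a lentiviral erythropoietin construct with GFP. The DPSC cells are known here only by that label. The labels give 100000 cells per μl and the methods of the study another density, so no dose is stated. Rats with xenografts also received dexamethasone (2 mg/kg) and then cyclosporin (10 mg/kg per day), so the cells and the immunosuppression cannot be told apart. The reads were quantified against rat reference sequences, with no human reference named in the methods, and reads from the transplanted cells were not separated. The labels do not say whether the 3 libraries of a group came from 3 rats, so the p-values measure the spread between these libraries.

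MHC class II molecules hold peptides from ingested protein on the cell surface, where CD4 T cells read them. In the rat the 2 classical pairs are RT1-B (chains RT1-Ba and RT1-Bb) and RT1-D (chains RT1-Da and RT1-Db1). Cd74, the invariant chain, fills the groove until the complex reaches the endosome, and RT1-DM (RT1-DMa with RT1-DMb) then exchanges the remaining fragment for a peptide. Ciita is the coactivator that the promoters of these genes depend on, through the factors bound to their X and Y boxes. Dendritic cells, B cells and activated macrophages and microglia are the usual sources, and the healthy retina holds few of them.

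The promoters are shown because they are the stretches through which Ciita is known to act. Ciita was not called in MSC or MSCEPO against NT, where the chains were called. Promoter windows from RefSeq (build GRCr8, 250 bases before to 50 after each start) were matched by symbol for 6 of the 8 members, all but RT1-DMb and Ciita. The motifs, which were chosen with these promoters in view, were ACNGATG for the X core and TGATTGG for the Y core. In the stretches below, 5′ to 3′ on the strand of the gene, capitals mark the cores found.
RT1-Ba, chr20:4576962-4577033 (+ strand): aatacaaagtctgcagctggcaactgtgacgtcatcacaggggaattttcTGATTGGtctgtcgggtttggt
RT1-Bb, chr20:4604160-4604228 (- strand): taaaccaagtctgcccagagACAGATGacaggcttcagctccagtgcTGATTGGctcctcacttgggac
RT1-Da, chr20:4515316-4515385 (+ strand): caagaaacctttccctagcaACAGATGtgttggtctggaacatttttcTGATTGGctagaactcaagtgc
RT1-Db1, chr20:4560223-4560291 (- strand): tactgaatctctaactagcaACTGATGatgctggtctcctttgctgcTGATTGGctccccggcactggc
RT1-DMa, chr20:4712380-4712449 (- strand): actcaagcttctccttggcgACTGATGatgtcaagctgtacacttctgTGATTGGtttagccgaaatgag
The pair of cores, an X core 10 to 30 bases before a Y core on either strand, was present in RT1-Bb, RT1-Da, RT1-Db1 and RT1-DMa, with a gap of 20 or 21 bases. Of all 33469 windows of 300 bases, 10.2% held an X core and 7.06% a Y core on either strand, and 14 windows (0.0418%) held the pair. Of the genes with the pair, 6 were RT1 genes, the 4 members named and RT1-DOb and RT1-Db2. The RT1-Ba window held the Y core without an X core of these letters, and the Cd74 window held neither. A match is a description of the letters and not of a bound factor.

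**Figure D1:**
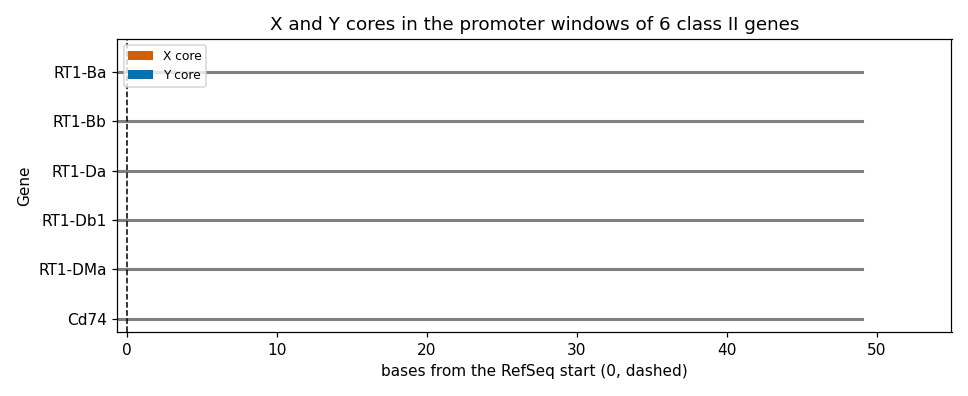
Promoter windows of 6 class II genes, in bases from the RefSeq start (0, dashed), with a key for the X core (orange) and the Y core (blue). The drawn range begins at the start, so the cores, at -109 to -39, lie outside it. By position, the X core lies 20 or 21 bases before the Y core in RT1-Bb, RT1-Da, RT1-Db1 and RT1-DMa. The RT1-Ba window holds the Y core alone and the Cd74 window neither.

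The values used are the authors' regularized log (rlog) values. They are on a log2 scale, adjusted to one library size, and pulled toward the mean of the gene, so a fold change computed from them is smaller than one from counts. They are no read counts and do not show how deeply a library was sequenced, so the depth is unknown. A gene was called when limma gave a Benjamini-Hochberg adjusted p under 0.05, over all 15424 genes tested, and a fold change over 2. Replicates 1, 2 and 3 of a group are named in that order throughout. The libraries had median values of 8.63 to 8.82. Gnat1, the rod transducin subunit that marks the retina, was at 17.83 to 18.04 in NT and 14.71 to 16.99 in the other libraries. Of the 15 libraries, 2 stood apart from their groups, with Euclidean distances to the group mean of 59.2 for MSCEPO replicate 3 and 46.9 for MSC replicate 1, against 15.9 to 20.8 in the NT and sham libraries. DPSC replicate 2 was next at 43.3, and the remaining MSC, MSCEPO and DPSC libraries were at 21.5 to 38.2. The comparisons of MSC and MSCEPO with NT and with sham are given with and without the 2 farthest libraries.

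The classical chains and Cd74 stood lowest in NT, higher in sham and DPSC, and highest in MSCEPO and MSC. RT1-Da, the alpha chain of the RT1-D pair (ENSRNOG00000032844), had rlog values of 8.09, 8.33 and 7.20 in the NT libraries. Its values were 9.61, 10.32 and 9.59 in sham, 14.70, 12.29 and 11.07 in MSC, 12.24, 10.86 and 10.61 in MSCEPO, and 9.62, 11.89 and 9.47 in DPSC. All 12 libraries from NaIO3-treated rats were above all 3 NT libraries, and all 6 MSC and MSCEPO libraries were above all 3 sham libraries. The DPSC libraries split, with replicate 2 among the MSC and MSCEPO values and replicates 1 and 3 at the sham level.

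RT1-Db1, its beta chain (ENSRNOG00000033215), had values of 7.23, 7.56 and 6.38 in NT and 8.70, 9.61 and 8.86 in sham. In MSC it had 13.59, 11.12 and 10.46, in MSCEPO 11.20, 10.28 and 10.40, and in DPSC 9.0, 10.94 and 8.84. The order of the libraries was close to that of RT1-Da, with MSC replicate 1 at the top and NT replicate 3 at the bottom. RT1-Db2, a second gene of the same beta family that may share reads with it, is described with the other class II genes.

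RT1-Ba, the alpha chain of the RT1-B pair (ENSRNOG00000000451), had values of 7.64, 7.89 and 6.71 in NT and 9.41, 9.67 and 9.06 in sham. In MSC it had 14.16, 11.75 and 10.65, in MSCEPO 12.04, 10.83 and 11.00, and in DPSC 9.23, 11.41 and 9.34. RT1-Bb, its beta chain (ENSRNOG00000032708), had 6.69, 6.60 and 5.98 in NT and 7.95, 8.16 and 7.79 in sham. Its values were 13.03, 10.66 and 9.13 in MSC, 10.47, 9.60 and 8.81 in MSCEPO, and 7.58, 10.15 and 7.60 in DPSC. For both chains the NT, sham and combined MSC and MSCEPO libraries did not overlap, and DPSC replicates 1 and 3 lay close to the sham values.

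Cd74, the invariant chain (ENSRNOG00000018735), had values of 9.76, 9.83 and 8.60 in NT, 11.39, 12.14 and 11.40 in sham and 15.88, 13.88 and 12.97 in MSC. In MSCEPO it had 13.80, 12.58 and 13.02, and in DPSC 11.38, 13.52 and 11.60. The same separation held: every sham value was above NT, and every MSC and MSCEPO value was above sham.

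The partners in these complexes moved together, with a shift within the RT1-B pair. Within a library the difference RT1-Da minus RT1-Db1, set to 0 at its NT mean, stayed between -0.61 and 0.35 on the log2 scale over the 12 libraries of the other groups. The difference RT1-Ba minus RT1-Bb ran from 0.10 to 1.20 over the same 12, with the largest value in MSCEPO replicate 3. It was thus above its NT mean in all 12, while the NT libraries ran from -0.26 to 0.31. Over the 15 libraries, Pearson's r among RT1-Ba, RT1-Bb, RT1-Da, RT1-Db1 and Cd74 was 0.969 to 0.996. The points share libraries and groups, and the r is given as a description.

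**Figure D2:**
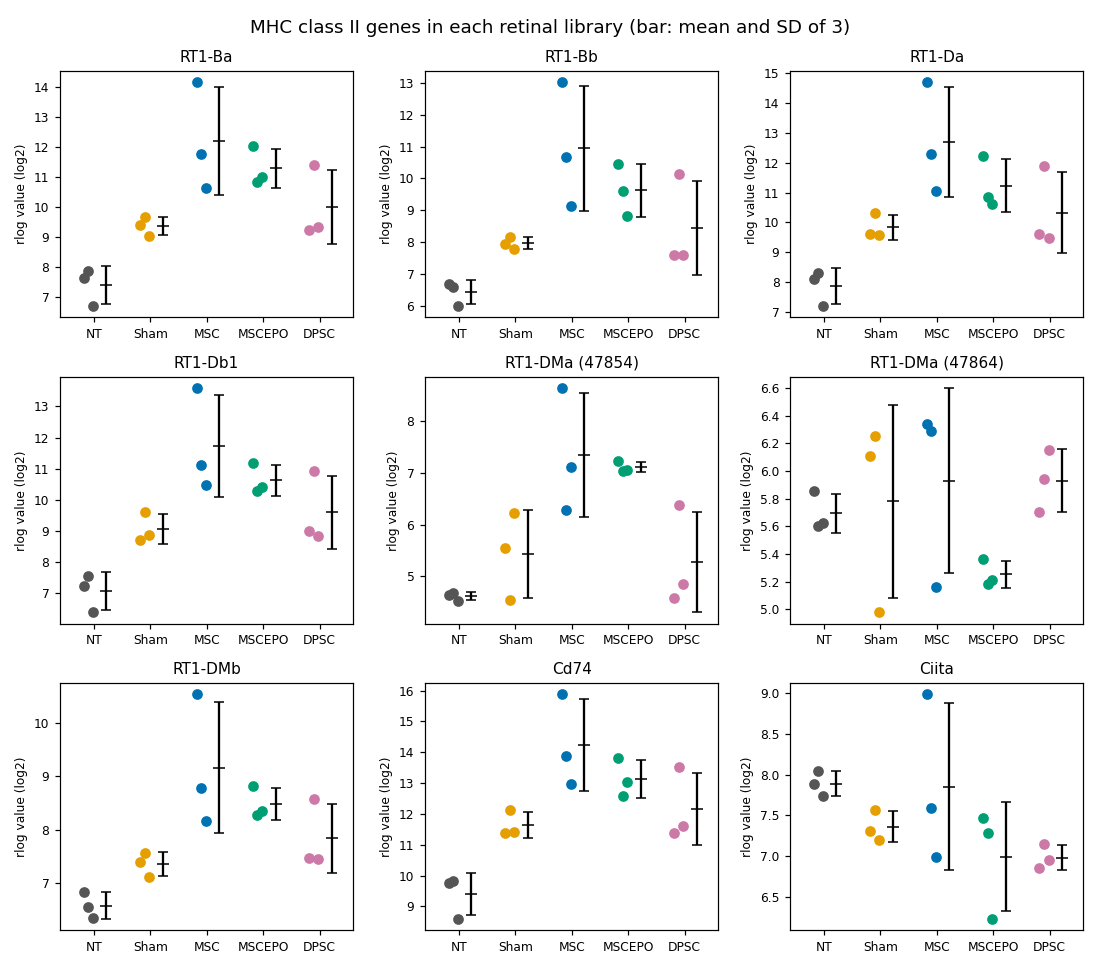
The rlog value (log2) of the 9 tested class II identifiers in each library, by group; points are libraries in the order of replicates 1 to 3, and the bar beside them is the mean and SD of 3 libraries. All 9 are highest in MSC replicate 1, while the group means of Ciita and RT1-DMa ENSRNOG00000047864 follow another order than those of the rest.

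RT1-DM, the peptide exchanger, showed a smaller range. RT1-DMb under the tested identifier ENSRNOG00000051002 had values of 6.84, 6.55 and 6.36 in NT, 7.41, 7.56 and 7.11 in sham, 10.53, 8.77 and 8.17 in MSC, 8.81, 8.28 and 8.34 in MSCEPO and 7.47, 8.58 and 7.46 in DPSC. Its groups were ordered like the classical chains. RT1-DMa under ENSRNOG00000047854 had 4.64, 4.67 and 4.52 in NT, 5.55, 4.53 and 6.23 in sham, 8.65, 6.28 and 7.11 in MSC, 7.22, 7.05 and 7.06 in MSCEPO and 4.58, 6.38 and 4.84 in DPSC. Sham and NT overlapped for this identifier, and the 3 MSCEPO libraries lay within a narrow range above both.

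RT1-DMa under ENSRNOG00000047864 did not follow it. Its values ran from 5.60 to 5.85 in NT, 4.98 to 6.25 in sham, 5.16 to 6.34 in MSC, 5.18 to 5.36 in MSCEPO and 5.70 to 6.15 in DPSC. Its group mean was lowest in MSCEPO. In sham replicate 3 and MSC replicate 3, where it was low (4.98 and 5.16), the other identifier was at 6.23 and 7.11. Reads of one gene may be split between identifiers that carry the same symbol, so both RT1-DMa values are uncertain.

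Ciita, the coactivator of class II transcription (ENSRNOG00000002659), had a group mean above that of NT in no group. Its values were 7.88, 8.04 and 7.74 in NT, 7.31, 7.57 and 7.20 in sham, 8.98, 7.59 and 6.99 in MSC, 7.47, 7.28 and 6.24 in MSCEPO and 6.85, 7.15 and 6.95 in DPSC. The sham, MSCEPO and DPSC libraries were all below NT, and MSC replicate 1 was the 1 library above NT. The lowest value was that of MSCEPO replicate 3, a library in which Cd74 stood at 13.02. The mean of Ciita was 7.89 ± 0.15 (SD, n = 3) in NT, 7.36 ± 0.19 (SD, n = 3) in sham, 7.85 ± 1.02 (SD, n = 3) in MSC, 7.0 ± 0.66 (SD, n = 3) in MSCEPO and 6.98 ± 0.15 (SD, n = 3) in DPSC. Within the groups, Ciita varied in an order like that of the chains: its 3 libraries were ranked as for RT1-Ba, RT1-Bb and RT1-Da in 4 of the 5 groups, as for Cd74 in 3 and as for RT1-Db1 in 2. The library with the highest Ciita value was also the highest in RT1-Ba, RT1-Da, RT1-Db1 and Cd74 in all 5 groups. Pearson's r of Ciita with each classical chain and Cd74 was 0.10 to 0.28 over 15 libraries, and -0.46 to -0.33 over the 13 without MSC replicate 1 and MSCEPO replicate 3.

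NaIO3 with vehicle was compared with healthy retina to see what the class II genes do in the damaged retina without cells. The sham eyes had the vehicle injection as well as NaIO3, so the injection and NaIO3 cannot be told apart. The classical chains and Cd74 were higher in sham by 1.55 (RT1-Bb) to 2.25 (Cd74) on the log2 scale, 2.92-fold to 4.75-fold. In the limma fit none of the 9 tested identifiers was called, where 0.292% of all tested genes were. For 6 of the 9, the sham values lay above all NT values without overlap, where 16.6% of all tested genes did. At an unadjusted p under 0.05, 4 of the 9 were higher, where 6.29% of tested genes were. Cd74 had a log2 fold change of 2.25 (95% interval 0.73 to 3.77, adjusted p = 0.18), RT1-Db1 one of 2.00 (95% interval 0.44 to 3.57, adjusted p = 0.258) and RT1-Bb one of 1.55 (95% interval -0.30 to 3.40, adjusted p = 0.517). Ciita had a log2 fold change of -0.53 (95% interval -1.42 to 0.37, adjusted p = 0.713), and its sham values lay below NT without overlap, where 15.3% of tested genes did. The 3 groups of transplanted retinas share in the estimate of the spread: in a fit of NT and sham alone 5 members were called (0.992% of all tested genes were called higher), and in the fit without MSC replicate 1 and MSCEPO replicate 3 only Cd74 was (adjusted p = 0.0474, with 0.648% of tested genes called higher).

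The MSC retinas had the highest class II values. Against NT, 7 of the 9 tested identifiers were called higher, where 5.71% of all tested genes were, and the 2 that were not were Ciita and RT1-DMa ENSRNOG00000047864. Cd74 rose by 4.85 on the log2 scale (95% interval 3.33 to 6.37, adjusted p = 0.00131), from 9.40 ± 0.69 to 14.24 ± 1.49 (SD, n = 3 each). RT1-Da rose by 4.81 (95% interval 3.01 to 6.61, adjusted p = 0.00292), RT1-Ba by 4.77 (adjusted p = 0.00217), RT1-Db1 by 4.66 (adjusted p = 0.00177) and RT1-Bb by 4.52 (adjusted p = 0.00456). These changes of the classical chains and Cd74 were 22.9-fold to 28.8-fold. The exchanger rose less, RT1-DMa ENSRNOG00000047854 by 2.74 (adjusted p = 0.00754) and RT1-DMb by 2.57 (adjusted p = 0.00418). Ciita had a log2 fold change of -0.04 (95% interval -0.93 to 0.86, adjusted p = 0.967). The median over the 9 was 4.52, against 0.0016 over all genes tested. Without MSC replicate 1 and MSCEPO replicate 3 the same 7 were called, where 4.34% of tested genes were called higher, and the changes were smaller. The classical chains and Cd74 then rose by 3.47 (RT1-Bb) to 4.03 (Cd74), or 11.1-fold to 16.3-fold, RT1-DMa ENSRNOG00000047854 by 2.09 and RT1-DMb by 1.89. Ciita had a log2 fold change of -0.60 in that fit (adjusted p = 0.0358), under the fold threshold.

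The MSCEPO retinas showed the same 7 identifiers called higher against NT, where 2.33% of all tested genes were. RT1-Ba rose by 3.88 on the log2 scale (95% interval 2.20 to 5.55, adjusted p = 0.00732), Cd74 by 3.74 (95% interval 2.22 to 5.26, adjusted p = 0.0052) and RT1-Db1 by 3.57 (adjusted p = 0.00796). RT1-Da rose by 3.36 (adjusted p = 0.0207), RT1-Bb by 3.20 (adjusted p = 0.0296), RT1-DMa ENSRNOG00000047854 by 2.50 (adjusted p = 0.0152) and RT1-DMb by 1.89 (adjusted p = 0.0231). Ciita had a log2 fold change of -0.89 (95% interval -1.79 to 0.0037, adjusted p = 0.187). The median over the 9 was 3.20, against -0.0036 over all genes tested. Again the same 7 were called without MSC replicate 1 and MSCEPO replicate 3, where 5.28% of tested genes were called higher. The classical chains and Cd74 then rose by 3.61 (RT1-Bb) to 4.02 (RT1-Ba), RT1-DMa ENSRNOG00000047854 by 2.52 and RT1-DMb by 1.96, and Ciita had a log2 fold change of -0.51 (adjusted p = 0.0567). The count of 7 fell to 3 without NT replicate 3 and to 4 without NT replicate 1 or without MSCEPO replicate 1. Calls fell over all tested genes too. The share called higher, 2.33% with all libraries, was 1.59% without NT replicate 1 and 1.47% without MSCEPO replicate 1. It was lower still without NT replicate 3. The MSC and MSCEPO comparisons share the NT libraries.

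**Figure D3:**
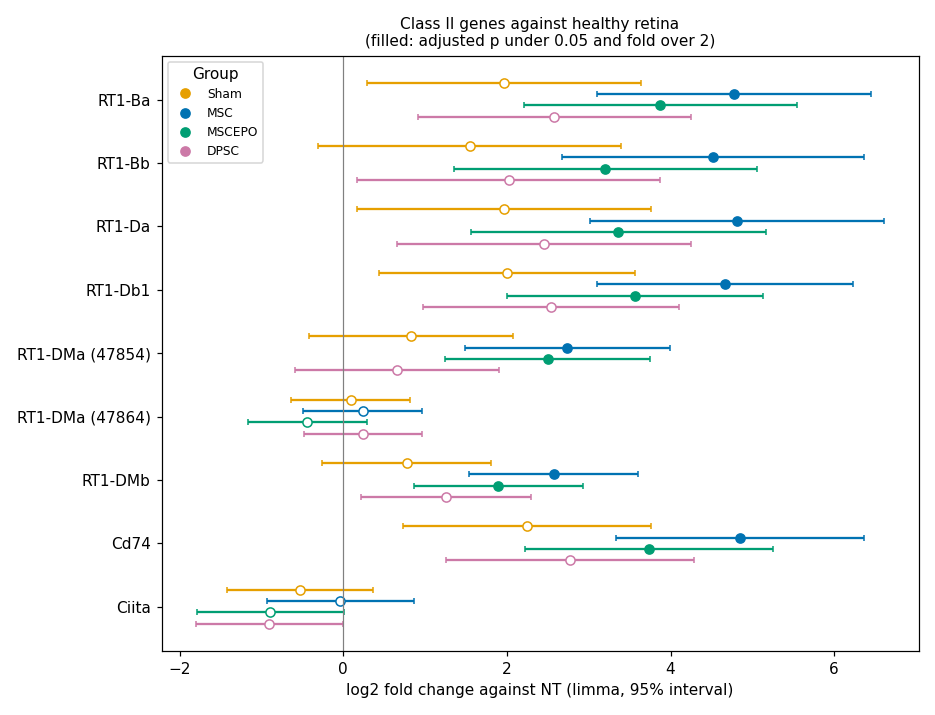
Log2 fold change against NT (points) with limma's 95% interval (lines) for the 9 tested class II identifiers in sham, MSC, MSCEPO and DPSC; filled points were called. The 7 filled points of MSC lie from 2.57 to 4.85 and those of MSCEPO from 1.89 to 3.88, no sham or DPSC point is filled, and Ciita lies at or below 0 in all 4 groups.

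Against sham, the comparison of cells with vehicle, the same genes were higher without passing the adjusted test. In MSC the classical chains and Cd74 had log2 fold changes of 2.60 (Cd74) to 2.97 (RT1-Bb), or 6.06-fold to 7.84-fold, with adjusted p from 0.142 to 0.155. Of the 9 tested identifiers 0 were called in the limma fit, where 0.00% of all tested genes were, and 7 were higher at an unadjusted p under 0.05, where 9.49% were. All MSC values lay above all sham values for 7 of the 9, where 13.1% of tested genes did. For Cd74 the 95% interval ran from 1.08 to 4.12 and for RT1-Db1 from 1.1 to 4.23. The result rests on the spread in MSC: without MSC replicate 3, 6 members were called higher, where 3.38% of all tested genes were. With MSC replicate 1 and MSCEPO replicate 3 left out, the log2 fold changes of the classical chains and Cd74 were 1.73 (RT1-Db1) to 1.93 (RT1-Bb), with adjusted p from 0.245 to 0.278.

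In MSCEPO against sham, the log2 fold changes of the classical chains and Cd74 ran from 1.40 (RT1-Da) to 1.91 (RT1-Ba), with adjusted p from 0.56 to 0.677. Of the 9 identifiers 0 were called higher in the limma fit, where 0.00% of tested genes were, and 4 were higher at an unadjusted p under 0.05, where 3.19% were. The groups did not overlap for 7 of the 9, where 7.44% of tested genes were higher without overlap. With array weights, which give the libraries that stand apart less weight, 6 members were called higher, where 2.34% of all tested genes were. With MSC replicate 1 and MSCEPO replicate 3 left out, the log2 fold changes of the classical chains and Cd74 were 1.55 (Cd74) to 2.06 (RT1-Bb), with adjusted p from 0.135 to 0.223.

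In DPSC against sham, the log2 fold changes of the classical chains and Cd74 ran from 0.47 (RT1-Bb) to 0.62 (RT1-Ba), with an adjusted p of 1. Of the 9 identifiers 0 were called in the limma fit, where 0.0130% of tested genes were, and 0 passed an unadjusted p under 0.05, where 2.37% did. The difference rests on DPSC replicate 2: without it, the log2 fold change was -0.15 for Cd74 and -0.30 for RT1-Da. The 95% interval for Cd74 ran from -1.0 to 2.04. In DPSC against NT, 0 were called in the limma fit, where 0.784% of tested genes were, and 6 were higher at an unadjusted p under 0.05, where 8.91% were. Cd74 came nearest, with a log2 fold change of 2.77 (95% interval 1.25 to 4.29, adjusted p = 0.0548), and without MSC replicate 1 and MSCEPO replicate 3 in the fit 5 members were called higher, where 1.39% of tested genes were. Ciita had a log2 fold change of -0.91 against NT (95% interval -1.80 to -0.01, adjusted p = 0.291).

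Between the cell products no member was called, and no gene of the whole table was (0.00% in each of these 3 comparisons). MSC was above MSCEPO in the mean by 0.90 (RT1-Ba) to 1.45 (RT1-Da) for the classical chains and Cd74, with adjusted p from 0.754 to 0.759, and 0 of 9 passed an unadjusted p under 0.05, where 3.79% of tested genes did. The 95% interval of the difference was -0.41 to 2.63 for Cd74 and -0.35 to 3.25 for RT1-Da, so a several-fold difference is within it. Without MSC replicate 1 the difference for RT1-Ba was -0.09. DPSC was below MSC by 2.08 (Cd74) to 2.50 (RT1-Bb) on the log2 scale, with an adjusted p of 0.587, and 7 of 9 were lower at an unadjusted p under 0.05, where 5.78% of tested genes were. DPSC was below MSCEPO by 0.91 (RT1-Da) to 1.30 (RT1-Ba), with an adjusted p of 0.996, and 1 of 9, RT1-DMa ENSRNOG00000047854, was lower at an unadjusted p under 0.05 (log2 fold change -1.84), where 0.901% of tested genes were. In the order of the means of RT1-Ba, RT1-Bb, RT1-Da, RT1-Db1 and Cd74, which was NT, sham, DPSC, MSCEPO, MSC, no neighbouring groups differed by the adjusted test.

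The other class II genes moved with the members in MSC. RT1-Db2, a second beta chain of the RT1-D family, had values of 4.50, 4.66 and 4.20 in NT, 4.15, 6.17 and 5.10 in sham, 10.63, 7.66 and 6.48 in MSC, 6.30, 4.31 and 6.23 in MSCEPO and 4.90, 7.21 and 4.81 in DPSC. MSCEPO replicate 2 was within the NT range for this gene, unlike for the members, and its reads may be shared with RT1-Db1. RT1-DOa and RT1-DOb form DO, the inhibitor of RT1-DM that is best known from B cells. In MSC against NT all 3 tested genes of this list were called higher, where 5.71% of all tested genes were. RT1-Db2 rose by 3.80 (adjusted p = 0.0179), RT1-DOa by 1.40 (adjusted p = 0.0202) and RT1-DOb by 1.27 (adjusted p = 0.0161). In MSCEPO against NT 0 of 3 were called in the limma fit, where 3.57% of all tested genes were. At an unadjusted p under 0.05, 0 passed, where at least 11.6% of tested genes did (the share by adjusted p alone). Counts of 0 among 3 are near these shares. The median log2 fold change was 0.71. RT1-Ha, the remaining gene of the list with values, lay below the filter.

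No factor that binds class II promoters with Ciita was called higher in these groups. Of 7 listed (Rfx5, Rfxap, Rfxank, Nfya, Nfyb, Nfyc and Creb1), 0 were called in either direction by limma in MSC or MSCEPO against NT, with medians of -0.16 and -0.30. Of all tested genes, 6.70% and 3.57% were called, so counts of 0 among 7 are near these shares. At an unadjusted p under 0.05, 1 of the 7 was higher in each comparison, and 2 were lower in MSC and 3 in MSCEPO. By adjusted p under 0.05 alone, 11.0% of all tested genes were higher and 6.37% lower in MSC, and 5.83% and 5.81% in MSCEPO. The shares at an unadjusted p under 0.05 are at least as large as those by adjusted p alone. Nfyb, a subunit of the factor at the Y box, had a log2 fold change of -0.85 in MSC (adjusted p = 0.000536) and -0.94 in MSCEPO (adjusted p = 0.00021), under the fold threshold. Rfx5, a subunit of the factor at the X box, had 0.25 in MSC (adjusted p = 0.0965) and 0.22 in MSCEPO (adjusted p = 0.168).

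The genes that link interferon gamma to Ciita rose in part. Of 9 tested, 4 were called higher in MSC against NT, where 5.71% of all tested genes were. Among the 4 were Irf8 (3.01 on the log2 scale, adjusted p = 0.00251), Spi1 (2.14, adjusted p = 0.00447) and Irf1 (1.25, adjusted p = 0.0113). Irf1 carries the interferon signal to the Ciita gene, and Irf8 and Spi1 are factors of the myeloid lineage. In MSCEPO against NT 3 of 9 were called higher, where 2.33% of all tested genes were. Among the 3 were Irf8 (2.08, adjusted p = 0.0181) and Spi1 (1.50, adjusted p = 0.0302). Ifng itself lay below the filter, at -0.58 to -0.39 in all libraries.

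Some genes of peptide handling and some partners rose as well. Of 9 lysosomal genes tested, 3 were called higher in MSC against NT, where 5.71% of all tested genes were. Among the 3 were Ctss, the protease that trims the invariant chain (2.13, adjusted p = 0.00254), and Ifi30, the lysosomal thiol reductase (2.00, adjusted p = 0.00628). In MSCEPO against NT, where 2.33% of all tested genes were called higher, 2 were, Ctss (1.83, adjusted p = 0.00616) and Ctsh (1.38, adjusted p = 0.0156). Cst3, a cathepsin inhibitor, had 0.35 in MSC and 0.42 in MSCEPO, with adjusted p of 0.313 and 0.244. Of 7 partners on T cells and costimulators, 4 were called in MSC against NT, Cd4 (2.89, adjusted p = 0.00845), Cd80 (1.18, adjusted p = 0.0498), Cd86 (1.12, adjusted p = 0.0295) and Ctla4 (1.11, adjusted p = 0.0377). In MSCEPO 0 of these 7 were called by limma, near the share of 2.33%, and 3 were higher at an unadjusted p under 0.05. By adjusted p under 0.05 alone, 5.83% of all tested genes were higher in MSCEPO, so at an unadjusted p at least that share was. Of 4 tested genes of the Cd74 receptor complex, Cd44 alone was called in MSC (1.28, adjusted p = 0.00908), with the same shares over all tested genes. In MSCEPO 0 of the 4 were called, and 1 was higher at an unadjusted p under 0.05.

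The class I pathway serves as a counterpart. Of its 9 listed genes, 6 were called higher in MSC against NT and 4 in MSCEPO against NT, with list medians of 1.48 and 1.22. Of all tested genes, 5.71% and 2.33% were called higher. Nlrc5, which does for class I what Ciita does for class II, rose by 2.22 in MSC (adjusted p = 0.00216) and 1.45 in MSCEPO (adjusted p = 0.0207). Its values were 5.38, 5.47 and 5.65 in NT, 6.30, 6.22 and 6.36 in sham, 8.18, 7.73 and 7.25 in MSC and 7.29, 7.57 and 5.99 in MSCEPO. All sham, MSC and MSCEPO values of Nlrc5 were above NT, with MSCEPO replicate 3 the lowest of them, whereas the mean of Ciita was above NT in no group. No test compared the 2 coactivators.

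Markers of immune cells moved with the class II genes. In bulk retina, more cells of a type and more RNA per cell cannot be told apart. The mean of the 9 class II identifiers, relative to NT, was 1.17, 1.43 and 1.03 in sham, 4.77, 2.85 and 2.09 in MSC, 2.85, 2.11 and 1.97 in MSCEPO and 0.94, 2.56 and 1.04 in DPSC. The mean of 9 microglia and macrophage markers ran from 0.75 to 1.42 in sham, 1.46 to 2.91 in MSC, 1.11 to 2.17 in MSCEPO and 0.61 to 1.85 in DPSC. In MSC and in MSCEPO against NT, 7 of these 9 markers were called higher, where 5.71% and 2.33% of all tested genes were. In sham against NT limma called 0 of the 9, where 0.292% of all tested genes were called. There 8 of the 9 were higher at an unadjusted p under 0.05, where 6.29% of tested genes were. The part of these markers in the class II values was not tested.

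The lists of B, T and dendritic cell markers were followed in the same groups. The mean of 5 tested B cell markers was -0.16 to -0.05 in sham, so in these libraries, where the class II mean was above NT by 1.03 or more, it was at the NT level. It was 4.24, 2.49 and 1.45 in MSC, 2.02, 1.60 and -0.03 in MSCEPO and 0.02, 1.73 and 0.03 in DPSC. The mean of 7 T cell markers was -0.03 to 0.07 in sham, 0.88 to 3.63 in MSC, 0.47 to 1.29 in MSCEPO and 0.05 to 0.95 in DPSC. The mean of 6 tested dendritic cell markers was 0.04 to 0.18 in sham, 0.51 to 2.65 in MSC, 0.05 to 1.04 in MSCEPO and 0.0030 to 0.84 in DPSC. In MSC against NT all 5 B cell markers, all 7 T cell markers and 2 of the 6 dendritic cell markers were called higher. Over all tested genes 5.71% were. In MSCEPO against NT 0 of each were called by limma, where 2.33% of all tested genes were called higher. Counts of 0 in lists this short are near that share. At an unadjusted p under 0.05, 0, 0 and 1 of these markers were higher in MSCEPO. By adjusted p alone 5.83% of all tested genes were higher there, so at least that share passed. Against sham, 3 of 5 B cell, 7 of 7 T cell and 2 of 6 dendritic cell markers were higher without overlap in MSCEPO. Over all tested genes 7.44% were. In MSC against MSCEPO 0 of these markers were called (0.00% of all tested genes were). There 4, 7 and 0 of them were higher at an unadjusted p under 0.05, where 3.79% of tested genes passed in either direction. The part of these markers in the class II values was not tested. The mean of 5 rod markers was below NT in the same libraries, by values of -0.97 to -0.67 in sham, -1.70 to -1.61 in MSC, -2.04 to -1.47 in MSCEPO and -1.85 to -0.86 in DPSC.

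**Figure D4:**
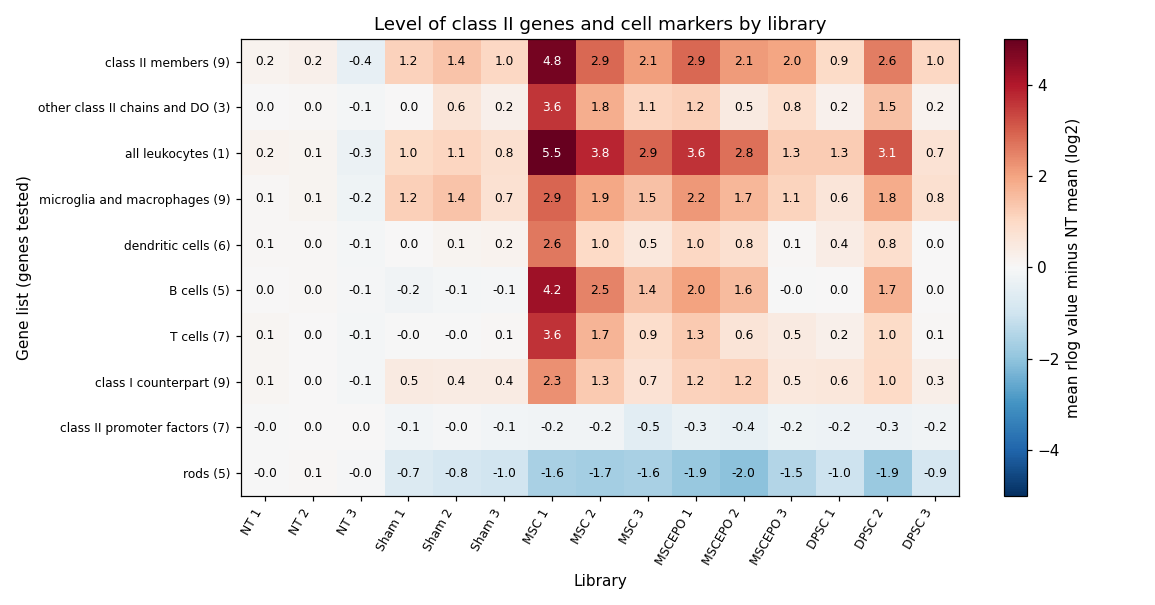
Mean rlog value of each gene list minus its NT mean (log2, colour and printed number) in the 15 libraries, with the number of tested genes in parentheses. The class II row is above NT in all 12 libraries of NaIO3-treated rats, while the B cell and T cell rows are near 0 in sham, in DPSC replicates 1 and 3 and, for B cells, in MSCEPO replicate 3.

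In MSCEPO replicate 3, the library farthest from its group mean, the B cell and dendritic cell lists were near the NT level while the class II mean was above it. Its class II mean was 1.97, the lowest of the 3 MSCEPO libraries but close to the 2.11 of MSCEPO replicate 2. This library was the lowest of the 3 in 3 of the 9 class II identifiers. Its value of Ptprc, the marker of all leukocytes, was 7.94, against 10.31 and 9.44 in MSCEPO replicates 1 and 2 and 7.47 to 7.77 in sham. It was the lowest MSCEPO library in all 5 B cell markers and all 6 dendritic cell markers, with 1 of the 5 and 4 of the 6 above all NT values. Of the 9 microglia and macrophage markers it was lowest in 7, all but Aif1 and Tmem119, with a list mean of 1.11 against 2.17 and 1.68, and 8 of the 9 were above all NT values. Of the 7 T cell markers it was lowest in 6, with a list mean of 0.47 against 0.64 in replicate 2, and 6 of the 7 were above all NT values. MSC replicate 1, in turn, was the highest library in class II genes and in each of the immune marker lists.

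Within each library, Cd74 was also set against single markers, with the difference put to 0 at its NT mean. Cd74 minus Aif1 was 0.62 to 1.07 in sham, 1.84 to 2.73 in MSC, 1.18 to 1.82 in MSCEPO and 0.75 to 1.80 in DPSC. All 6 MSC and MSCEPO libraries were above all 3 sham libraries in this difference. Cd74 minus Ptprc ran another way, 1.03 to 1.66 in sham, 0.66 to 1.01 in MSC, and 0.78, 0.43 and 2.37 in MSCEPO. Every library of NaIO3-treated rats was above NT in both differences. Cd74 minus Ciita was 2.57 to 3.06 in sham, 4.47 to 5.39 in MSC, 3.79 to 5.28 in MSCEPO and 3.02 to 4.86 in DPSC. These differences have no test.

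**Figure D5:**
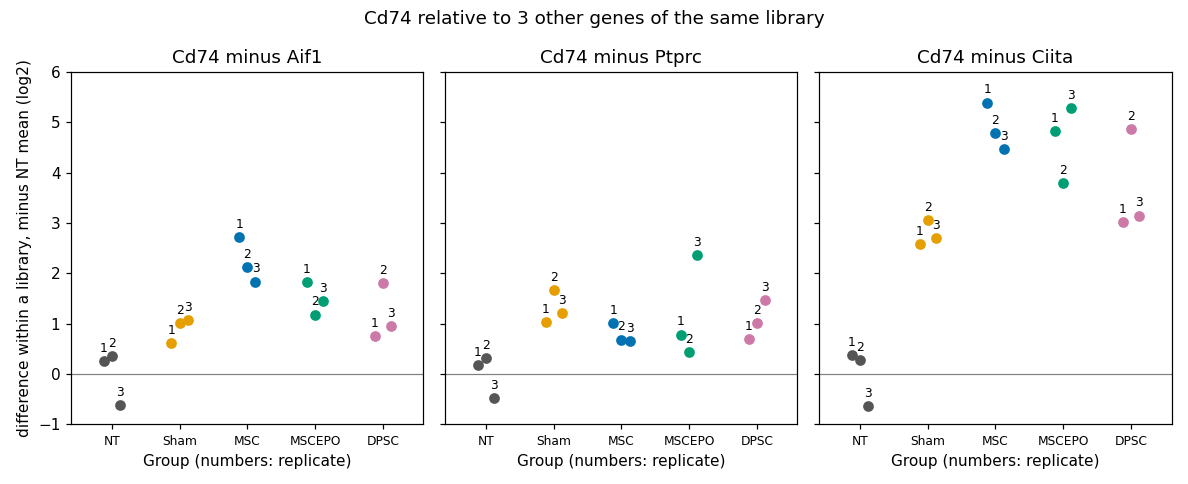
Cd74 minus Aif1 (left), Ptprc (middle) and Ciita (right) within each library, in log2 units relative to the NT mean of that difference; points are libraries, numbered by replicate. Against Aif1 and Ciita the MSC and MSCEPO points lie above sham, and against Ptprc the 3 MSC points (0.66 to 1.01) lie below the 3 sham points (1.03 to 1.66), with MSCEPO replicate 3 at the top.

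Genes whose pattern was most like the mean of the tested members were found by Pearson's r over the 15 libraries. The 10 highest were Fermt3, Klhl6, Rac2, Irf8, Ptpn6, Ly86, Ptafr, Gna15, Arhgap45 and Lcp2, with r from 0.989 (Lcp2) to 0.995 (Fermt3). Without the 2 libraries farthest from the median of the class II mean, MSC replicate 1 and NT replicate 3, r was 0.988 for Fermt3 and 0.975 for Ly86. The 5 genes most like Ciita were Aasdhppt (r = 0.944), Mad2l1, Arrdc3, Xbp1 and Vmp1 (r = 0.91). Without MSC replicate 1 and MSCEPO replicate 3, r was 0.851 for Aasdhppt and 0.694 for Xbp1. The libraries fall into groups, so these values describe a pattern and carry no test.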

How the data were processed

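Whole-retina mRNA of 15 libraries (5 groups of 3, grouped by the treatment labels) was measured by RNA-Seq. The authors quantified reads with Salmon 1.1.0 on Rnor_6.0, summed them to genes with tximport, and deposited rlog values from DESeq2, which are log2 values corrected for library size and shrunken toward the gene mean. No counts were used, so depth is unknown and no counting intervals are given. A table with 15 further per-sample columns was not used, because their names match no label.

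The filter kept genes whose mean over the 15 libraries reached 3.32 (log2 of 10). They were tested with limma 3.58.1 in R 4.3.3: 1 fit of all libraries with 5 group means and a variance trend, and 10 comparisons. A called gene had an adjusted p under 0.05 (Benjamini-Hochberg, 15424 genes) and an absolute log2 fold change over 1. The level of a list is the mean over its tested genes, relative to NT. The members and lists were chosen with earlier results of these data known. The genes named are the members, the genes of the lists, the 10 most like the member mean and the 5 most like Ciita; Ptprc and Aif1, set beside MSCEPO replicate 3 or Cd74, were picked from the lists after their values were seen. Some genes of the lists are not reported here. Promoter windows came from RefSeq (GRCr8) and were searched with Python 3.11.15, and plots were drawn with matplotlib 3.10.9. The fit was tested on simulated data. Alternatives were the adjusted p alone, other filters, 2 groups alone, a replicate block, median centring, quantile normalization, array weights, no DPSC group, each library left out, and, chosen after seeing the data, MSC replicate 1 and MSCEPO replicate 3 left out together.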

Additional observations from a re-analysis of the deposited data

How the results depend on the processing

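The 7 members called in MSC against NT were called in every alternative run, with each library left out too. The other counts of called members moved as follows. In sham against NT the count was 5 with the 2 groups alone, 5 with array weights, and 1 without MSC replicate 1 and MSCEPO replicate 3. With array weights it was 6, all higher, in MSCEPO against sham and 6, all lower, in DPSC against MSCEPO. In DPSC against NT with array weights it was 6, of which 5 were higher and 1, Ciita, was lower (adjusted p = 0.000424). In DPSC against NT it was 1 with quantile normalization, 1 with the replicate block (Cd74, adjusted p = 0.0446) and 5 without MSC replicate 1 and MSCEPO replicate 3. In these settings and comparisons, 0.609% to 2.64% of all tested genes were called. Leaving out 1 library at a time, the count ran from 0 to 6 in MSC against sham and from 3 to 7 in MSCEPO against NT. Over the same runs, the share of all tested genes called ran from 0.00% to 3.40% and from 1.99% to 5.41%. The cause was not tested.

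The replicate block changed no other call of a count. Of 30 pairs of libraries with the same number in different groups, 12 had deviations from the group mean that correlated over 0.1 (r from -0.441 to 0.653). Differently numbered pairs had r from -0.655 to 0.681, and 6 of 15 libraries were most like one of their own number. Among replicates 3 of NT, MSC, MSCEPO and DPSC, r was 0.0818 to 0.653, and between these and sham replicate 3 it was -0.441 to -0.0595. Whether libraries of one number share more than the number was not tested.

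Quantile normalization put the median over all tested genes at -0.101 (log2) in MSC against NT. Some differences changed sign. For RT1-DMa ENSRNOG00000047864 the log2 fold change with quantile normalization was -0.081 in sham against NT, -0.090 in MSC against sham and -0.17 in MSC against NT. With array weights it was -0.40 in MSC against sham, -0.043 in DPSC against sham, -0.36 in MSC against NT and -0.0037 in DPSC against NT. RT1-Bb was at -0.15 in DPSC against sham with array weights. Without MSC replicate 1 and MSCEPO replicate 3, RT1-DMa ENSRNOG00000047864 was at -0.057 and Ciita at -0.073 in MSC against sham, and Ciita at 0.016 in MSCEPO against sham. In MSC against MSCEPO the same setting gave -0.24 for RT1-Ba (0.90 with all libraries), -0.14 for RT1-Bb (1.32), -0.44 for RT1-DMa ENSRNOG00000047854 (0.24), -0.075 for RT1-DMb (0.68) and -0.089 for Ciita (0.86).

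Leaving out 1 library at a time, RT1-DMa ENSRNOG00000047864 ran from -0.15 to 0.49 in sham against NT, -0.25 to 0.53 in MSC against sham, -0.25 to 0.39 in DPSC against sham and -0.38 to 0.21 in DPSC against MSC. Ciita ran from -0.073 to 0.92 in MSC against sham, -0.60 to 0.016 in MSCEPO against sham, -0.60 to 0.40 in MSC against NT and -0.39 to 0.22 in DPSC against MSCEPO. In DPSC against sham, RT1-Ba ran from -0.093 to 1.00, RT1-Bb from -0.38 to 0.91, RT1-Da from -0.30 to 0.91, RT1-Db1 from -0.14 to 0.91, Cd74 from -0.15 to 0.92 and RT1-DMa ENSRNOG00000047854 from -0.73 to 0.22. In MSC against MSCEPO, RT1-Ba ran from -0.09 to 1.67, RT1-DMa ENSRNOG00000047854 from -0.41 to 0.77 and RT1-DMb from -0.0065 to 1.17.

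With 3 libraries a group and no read counts, the spread within MSC, MSCEPO and DPSC limits what these comparisons can show.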
